A study of Bos taurus with 9 samples.

Results

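The comparison of bovine oocytes given microplastics together with taurine against oocytes given microplastics alone comprised 6 of the 9 RNA sequencing libraries of the study, 3 in each group, chosen by their treatment labels. All genes of the deposited table were taken, 17852 in number, of which 13206 passed a filter on low counts and were tested. All oocytes were female germ cells of Bos taurus at metaphase II, the second meiotic arrest in which a mammalian egg awaits fertilization. The 3 remaining libraries came from control oocytes with no treatment named and are given side by side. The labels of the third group read taurine and microplastics, and no group received taurine alone, so a difference between the groups is one of taurine on top of microplastics. The sources used here give no polymer, particle size, dose, exposure time, breed, age or number of pooled oocytes. The title of the study names oocyte maturation, mitochondria, oxidative stress and apoptosis as its subjects. Whether replicates were independent batches of oocytes is not stated, and p-values therefore measure only how these libraries spread, which may be technical.

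Taurine is an amino sulfonic acid that animals make from cysteine or take up through dedicated transporters. It conjugates bile acids, acts as an osmolyte, and modifies uridines of mitochondrial transfer RNAs, a step needed for mitochondrial protein synthesis. A fully grown oocyte transcribes little, so its messenger RNA pool is a store laid down during growth, which is masked, polyadenylated, translated and degraded on a schedule during maturation. In such libraries fewer cells of a type and less of its RNA per cell cannot be told apart, and a uniform change in total RNA per oocyte is not seen, since every library is scaled to its own reads.

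Libraries held 21168652 to 22743580 estimated reads. The 3 microplastics libraries stood together on the first principal component (46.2% of the variance), whereas taurine 3 lay apart from taurine 1 and taurine 2: it correlated best with control 2 (r = 0.977 over the tested genes, which share the library scaling) and at 0.951 with taurine 1. Control 3 lay apart from its group too. It was at -4.86 on the first principal component, by taurine 1 (7.05) and taurine 2 (-3.36) and away from control 1 (-57.0) and control 2 (-50.6). Its correlation was 0.976 with each of these taurine libraries, against 0.962 (control 1) and 0.964 (control 2) within its own group. In each of these groups 1 library thus lay closer to the other group than to its own, and the labels were kept. A cause was not tested. Results are also given without taurine 3, and with both libraries left out 1777 genes differed between taurine and microplastics (1220 higher and 557 lower). Reads were spread over more genes with microplastics alone, where 15844 ± 135 genes had at least 1 read, than with taurine, where 15522 ± 124 had (SD, n = 3, exact permutation p = 0.1), and the 100 genes with most reads took 27.9% ± 1.31 of reads against 34.3% ± 1.72 (exact permutation p = 0.1). With 3 libraries against 3, 0.1 is the smallest p the test can give. The groups did not overlap in either measure. All 20 oocyte markers with a row had reads, and their summed level was 39400 to 48068 CPM with microplastics and 82287 to 108606 CPM with taurine. Of 19 tested, 5 were called higher and 3 lower by the test below. With library size as the only scaling these counts were 2 and 4. They were 3 and 2 after a trend on transcript length was removed. BTG4 carried most of the difference in that sum (means of 19780 and 52862 CPM), whereas the median log2 difference of the list was 0.07, 10 of 19 being above 0. NPM2 (154 and 98.4 CPM) and TLE6 (234 and 147 CPM) had lower means with taurine. CPM here is the usual depth-scaled count (cpm in edgeR) after scaling by the trimmed mean of M-values (TMM), a level that is not per transcript length, so it is compared between libraries and not between genes.

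Among called genes, more were higher than lower with taurine by TMM. Over all tested genes, 6456 of 13206 had a log2 difference above 0, with a median of -0.02. Of 13206 genes, 1878 (14.2%) were called at an adjusted p under 0.05 by edgeR's quasi-likelihood test, 1333 higher (10.1%) and 545 lower (4.13%) with taurine than with microplastics alone. The median called rise was 1.02 on the log2 scale and the median called fall -0.99. Rises of more than 4-fold numbered 122 and of more than 8-fold 31, while falls of more than 4-fold numbered 20 and of more than 8-fold 2. The 3 taurine libraries lay entirely above the microplastics libraries in 2463 genes (18.7%) and entirely below in 2292 (17.4%). Of the called genes, 1315 of the higher (98.6%) and 544 of the lower (99.8%) had no overlap between the groups. A lack of overlap in a called gene named below is thus no added support, and some of these genes were chosen by it. Higher calls concentrated among highly counted genes: of 1817 genes with a mean of at least 100 CPM, 583 were higher (32.1%) and 39 lower (2.15%), whereas between 1 and 10 CPM 167 were higher and 166 lower of 4642.

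Fewer genes were called with any one microplastics library left out, and the numbers were alike. There were 888 without microplastics 1, 1009 without microplastics 2 and 973 without microplastics 3. Of these, 875, 994 and 952 were also called in the full fit. Without taurine 3 there were 1211 calls (941 higher and 270 lower), and the number lay between 1320 and 2146 with any other library left out. In every one of the 9 fits with a library left out, 605 of the higher and 124 of the lower genes were called in the same direction, 38.8% of the calls, and these are said to hold below. With library size as the only scaling, the median log2 difference of all genes went from -0.02 to -0.45 and the balance of calls turned to 601 higher and 2488 lower, so the share of calls that were higher was 71.0% with TMM and 19.5% with library size only. Directions below are by TMM, and no called gene named below changed direction under that scaling. For pathway gene lists the counts under library size only are given beside them, followed by those after a smooth trend on transcript length was removed in each library. Medians are given less the median of all tested genes, a quantity that such a rescaling leaves nearly unchanged (list medians moved by -0.45 to -0.41). The counts of a list are to be set against those of all 13206 tested genes. These were 1333 higher and 545 lower by TMM (10.1% and 4.13%). They were 601 and 2488 with library size only and 1126 and 418 with the length trend removed. The lists of motors, SLC25 carriers, fatty acid oxidation, deadenylation, chaperones, autophagy and calcium handling had 9.09% to 10.5% called higher, near the share of all genes.

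**Figure D1:**
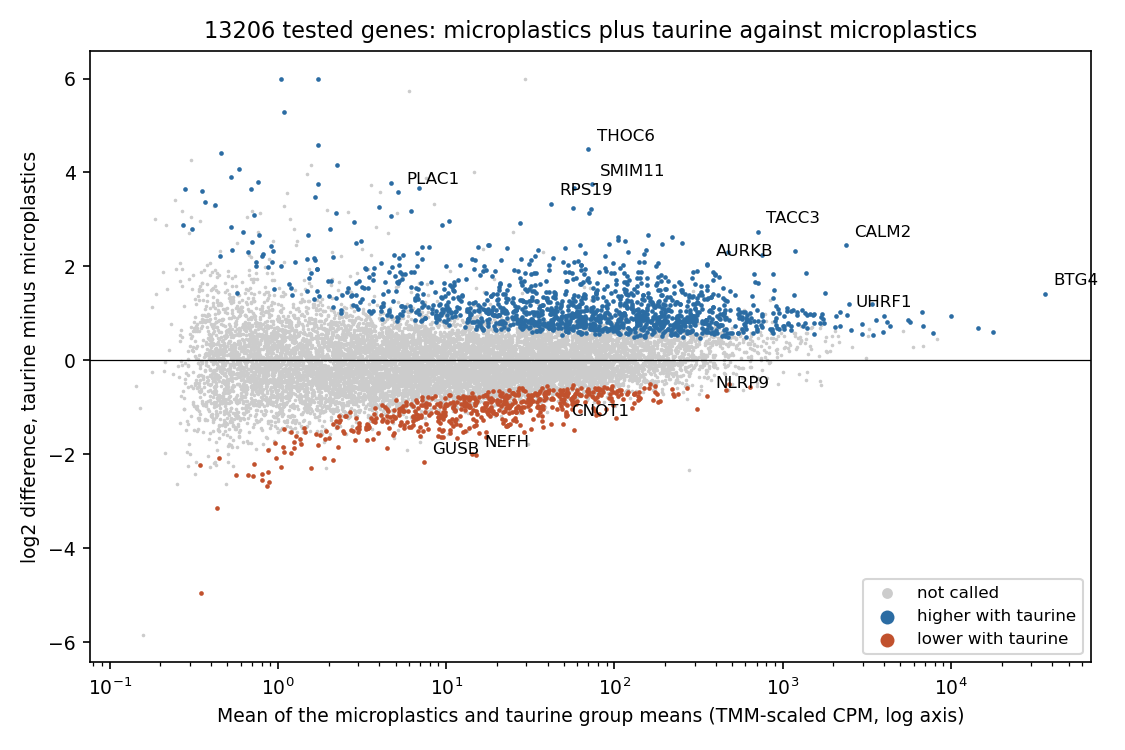
Log2 difference between microplastics plus taurine and microplastics alone against the mean level (TMM-scaled CPM, log axis), one point per tested gene, with values beyond 6 drawn at 6. Of the coloured points, 1333 genes were called higher and 545 lower, and at 100 CPM and above the higher calls (583) outnumber the lower ones (39).

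A set of transcripts that were scarce with microplastics alone were abundant with taurine. THOC6, a subunit of the THO complex that couples transcription to messenger RNA export, was at 5.62, 7.36 and 4.71 CPM in microplastics 1 to 3 and at 168, 123 and 109.7 CPM in taurine 1 to 3. SMIM11, a small integral membrane protein, was at 15.5, 7.17 and 7.58 CPM against 122, 172 and 115 CPM. NUDCD2, a cochaperone with a NudC domain, was at 8.94, 10.1 and 5.95 CPM against 96.5, 112 and 111 CPM. In each of these genes every taurine library lay far above every microplastics library. The control libraries lay in or near the range of the taurine libraries in THOC6 (146, 104 and 147 CPM) and SMIM11 (151, 142 and 123 CPM). In NUDCD2 the control libraries (183, 127 and 121 CPM) all lay above that range. The log2 differences were 4.50 (SE 0.26, adjusted p = 8.31e-06) for THOC6, 3.76 (SE 0.31, adjusted p = 5.39e-05) for SMIM11 and 3.67 (SE 0.25, adjusted p = 2.14e-05) for NUDCD2, and 4.63, 3.87 and 3.64 without taurine 3.

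The peptidase gene DPP3 was at 15.9, 13.9 and 12 CPM with microplastics and 86.6, 151 and 154 CPM with taurine (log2 3.23, adjusted p = 5.39e-05). HSD11B2, the enzyme that inactivates cortisol, was at 8.68, 18 and 5.95 CPM against 72.1, 134 and 103 CPM (log2 3.25, adjusted p = 0.000301). TM2D1 was at 24.3, 9.96 and 8.97 CPM against 128, 166 and 85.2 CPM (log2 3.13, adjusted p = 0.000536). In DPP3, taurine 1 was the lowest of the taurine libraries, and in HSD11B2 too, but in neither gene did the groups come near to overlapping. At lower levels the same held for the growth factor gene VEGFD (log2 3.77, 0.639 ± 0.461 to 8.73 ± 1.76 CPM, mean ± SD, n = 3, as in all such values below), for PLAC1, named for its expression in placenta (log2 3.58, 0.795 ± 0.292 to 9.57 ± 1.61 CPM), for FAM200B (log2 3.19) and for BTBD1, an adaptor of cullin ubiquitin ligases (log2 3.07). All of these calls held with any single library left out. GABRA4, a subunit of GABA receptors, was at 2.30, 0.507 and 0.213 CPM against 9.79, 12.5 and 16.2 CPM, and its call (adjusted p = 0.0169) was lost without taurine 3 (0.0721), microplastics 2 (0.063) or microplastics 3 (0.0526).

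**Figure D2:**
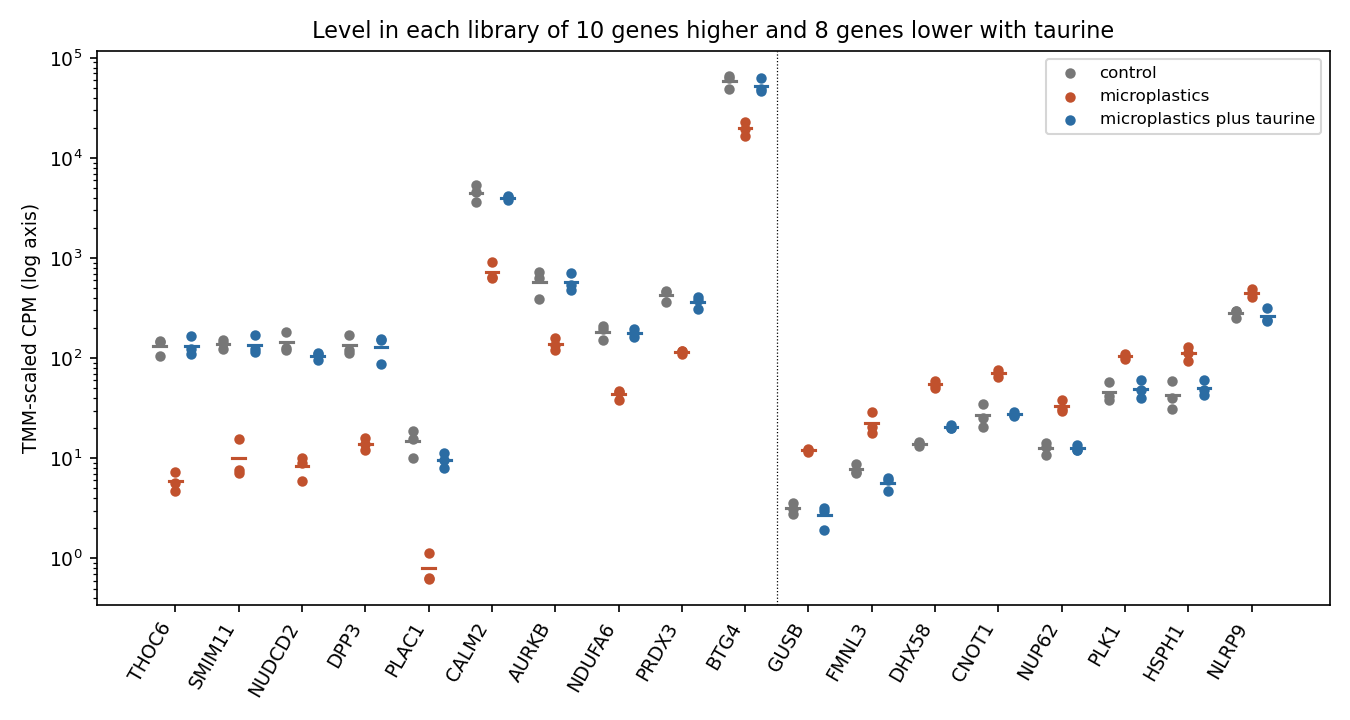
TMM-scaled CPM (log axis) of 10 genes higher and 8 genes lower with taurine in each library, with horizontal lines at the group means. In all 18 genes the 3 taurine libraries lie on one side of the 3 microplastics libraries, as in THOC6 (5.90 ± 1.34 against 134 ± 30.8 CPM) and CNOT1 (70.9 ± 5.52 against 27.6 ± 1.13 CPM). The genes were picked from the called ones, of which 98.6% (higher) and 99.8% (lower) have this separation.

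Several of the largest differences in CPM were in transcripts well known from oocytes. BTG4, the adaptor that brings the CCR4-NOT deadenylase to maternal messenger RNAs during the maternal-to-zygotic transition, was at 23017, 19593 and 16762 CPM with microplastics and 49042, 46479 and 63135 CPM with taurine. Its reads were 2.08 to 2.88% of a microplastics library and 4.41 to 5.31% of a taurine library, so the groups stood apart also before scaling. The log2 difference was 1.42 (SE 0.19, adjusted p = 0.000611), and 1.27 without taurine 3 (adjusted p = 0.00118). In the RefSeq annotation (assembly ARS-UCD2.0) BTG4 overlaps HOATZ, whose log2 difference was 0.23. The files do not say whether reads were counted by strand.

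CALM2, one of the genes for calmodulin, the calcium sensor of egg activation, was at 913, 636 and 645 CPM against 4179.5, 3811 and 4060.4 CPM. The taurine libraries were close to each other and more than 4 times as high as any microplastics library (log2 2.46, SE 0.20, adjusted p = 5.39e-05). CCNQ, the cyclin partner of CDK10, was at 1596, 2320.1 and 2272 CPM against 3511, 4430.4 and 6209 CPM (log2 1.19, adjusted p = 0.00687). OOSP2, an oocyte-secreted protein, was at 6205, 4791 and 4419 CPM against 10322, 8087 and 7166 CPM (log2 0.73, adjusted p = 0.0236), and DPPA3, which protects the maternal genome from demethylation in the zygote, at 6479, 6379 and 5982 CPM against 10534, 8281 and 9340.1 CPM (log2 0.58, adjusted p = 0.0208). BTG4, CALM2 and CCNQ held with every library left out. The call of DPPA3 was lost without any one microplastics library (adjusted p 0.0696 to 0.1), and that of OOSP2 without microplastics 2 or 3 or taurine 1 or 2 (0.0523 to 0.121).

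Among the others with a large difference in CPM, ZP2, a zona pellucida glycoprotein that binds sperm, rose from 4424 ± 692 to 9063 ± 4168 CPM. Taurine 3 alone was at 13785 CPM, and the call (adjusted p = 0.0247) was lost without it (0.0683) or without any one microplastics library (0.053 to 0.114). The polyubiquitin gene UBB rose from 6822 ± 645 to 13178 ± 3491 CPM (adjusted p = 0.012, 0.0688 without microplastics 3), and TMSB4X, which sequesters actin monomers, from 14024 ± 1717 to 21439.8 ± 2069 CPM (adjusted p = 0.0348), a call lost without any of 7 of the 9 libraries (0.0516 to 0.156). Both genes have close copies in mammalian genomes among which reads may be divided, so their counts are uncertain. GDF9 and BMP15, the growth factors by which the oocyte acts on its cumulus cells, were not called: GDF9 was at 533, 586 and 559.9 CPM against 642, 756 and 737 CPM (log2 0.35, 95% interval -0.48 to 1.17) and BMP15 at 1755, 2608 and 2589.9 CPM against 2037, 2899.7 and 3520.4 CPM (log2 0.28, -0.19 to 0.75). The groups did not overlap in GDF9 and did in BMP15, and with library size only both log2 differences turned negative (-0.09 and -0.16). ZP3 was at 375, 375 and 281 CPM against 516, 587 and 461 CPM, with no overlap and an adjusted p of 0.145.

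Genes called lower with taurine had longer transcripts and lower levels. Their median implied length was 3312 nt, against 1372 nt for genes called higher, and their median level was 18.2 CPM against 72.9 CPM. GUSB, the lysosomal beta-glucuronidase, was at 11.6, 12.1 and 12.4 CPM with microplastics and 1.90, 2.99 and 3.17 CPM with taurine, and the control libraries were at 2.78, 3.12 and 3.58 CPM. Each microplastics library was more than 3 times any taurine library (log2 -2.16, SE 0.27, adjusted p = 0.000385). NEFH, the heavy neurofilament chain, was at 25.5, 25.2 and 21.9 CPM against 6.70, 7.53 and 3.61 CPM (log2 -2.02, adjusted p = 0.0053), and FMNL3, a formin that nucleates actin filaments, at 29.2, 20.8 and 18 CPM against 4.70, 6.03 and 6.35 CPM (log2 -1.99, adjusted p = 0.000425). In neither did the groups overlap.

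Smaller falls with the same separation were found in MAP3K12, a kinase upstream of JNK (log2 -1.86), in NCDN, neurochondrin (log2 -1.70), in the carnitine acetyltransferase CRAT (log2 -1.68), in the integrin subunit ITGB5 (17.5 ± 3.30 to 5.56 ± 1.79 CPM, log2 -1.66), in FAM163A (log2 -1.64), in MADD, an exchange factor of RAB3 (log2 -1.63), in KCTD2 (log2 -1.62) and in ZNF805 (log2 -1.62). These calls held with any library left out, and WASHC1, a subunit of the endosomal WASH complex (25.9 ± 3.66 to 8.36 ± 3.72 CPM, adjusted p = 0.0106), lost its call without microplastics 1 (adjusted p = 0.0508). CRAT overlaps PTPA, ZNF805 overlaps AURKC and WASHC1 overlaps DDX11 in the annotation (log2 -0.36, 0.46 and -0.54 for these neighbours).

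By difference in CPM the lower genes included the chaperones HSPA8 and HSP90AA1. HSPA8, the constitutive HSP70, was at 703, 829 and 759 CPM with microplastics and 529, 436 and 581 CPM with taurine (adjusted p = 0.0302), and HSP90AA1 at 414, 319.9 and 510.1 CPM against 223, 259 and 121 CPM (adjusted p = 0.0444). Both calls were lost without any one microplastics library, that of HSPA8 also without taurine 2 (adjusted p 0.0536 to 0.113 in these 4 fits) and that of HSP90AA1 also without taurine 1 or taurine 3 (0.0554 to 0.158 in these 5 fits). WNK1, a kinase of ion transport, was at 214, 259 and 247 CPM against 146, 132 and 118 CPM (log2 -0.86, adjusted p = 0.00533) and HMGXB3 at 225, 245 and 235 CPM against 139, 112 and 132 CPM (log2 -0.88, adjusted p = 0.00285), with no overlap, and both held. MICAL2, an actin oxidase, fell from 562 ± 60 to 362 ± 41.7 CPM (adjusted p = 0.0169; 0.0734 without microplastics 3 and 0.0679 without taurine 2). The pyrophosphatase PPA1, FAM222B, the nucleoporin NUP153 and the translation factor EIF4G2 were called with log2 differences of -0.73, -0.75, -0.73 and -0.51, and each lost its call with at least 4 of the libraries left out one at a time (adjusted p 0.0548 to 0.143).

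Regulators of meiotic progression were called in both directions. Of 51 tested members of the list of anaphase-promoting complex and meiotic kinases, 15 were called higher and 4 lower (29.4% and 7.84%), with a median log2 difference of 0.24 relative to all genes. The counts were 7 higher and 9 lower with library size only, and 13 and 4 with the length trend removed. By TMM, 7 of the higher and 1 of the lower calls held with every library left out. Aurora kinase B, AURKB, the catalytic subunit of the chromosomal passenger complex, was at 135, 159.7 and 119.7 CPM against 475, 540.2 and 704 CPM (log2 2.05, SE 0.24, adjusted p = 0.000301). UBE2C, the ubiquitin-conjugating enzyme that works with the anaphase-promoting complex, was at 176, 199 and 149.8 CPM against 496, 683 and 667 CPM (log2 1.82, adjusted p = 0.000187), and ANAPC10, a substrate-binding subunit of that complex, at 39.4, 38.5 and 38.3 CPM against 84.8, 91.2 and 94.1 CPM (log2 1.22, adjusted p = 0.000458). Taurine libraries were above microplastics libraries throughout. Polo-like kinase 1, PLK1, went the other way, at 109, 98.1 and 106 CPM against 47.7, 60.3 and 39.7 CPM (log2 -1.09, adjusted p = 0.00517), also with no overlap. CCNB1, the cyclin of maturation-promoting factor, was at 3729, 4428 and 3673 CPM against 5131, 6741 and 9440.5 CPM (adjusted p = 0.0335) and AURKA at 2991, 4070.1 and 5269.9 CPM against 5922, 7115 and 8702 CPM (adjusted p = 0.0322). The call of CCNB1 was lost without taurine 2 (0.0708), taurine 3 (0.117) or any one microplastics library (0.0713 to 0.13), and that of AURKA without taurine 2 (0.076), taurine 3 (0.0991), microplastics 1 (0.135) or microplastics 2 (0.101).

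On the spindle and chromosomes, of 58 tested members of the list of spindle checkpoint, kinetochore and cohesin, 13 were called higher and 3 lower (22.4% and 5.17%), with a median log2 difference of 0.13 relative to all genes. The counts were 3 higher and 9 lower with library size only, and 8 and 1 with the length trend removed. By TMM, 4 of the higher and 1 of the lower calls held with every library left out. Inner kinetochore genes were among the higher: CENPU was at 899.6, 1017 and 1165 CPM against 2014, 1867 and 2202 CPM (log2 0.98), CENPK at 137, 135 and 114 CPM against 263, 219 and 261 CPM (log2 0.94) and CENPP rose from 22.3 ± 6.65 to 56 ± 9.86 CPM (log2 1.33). STAG3, a meiosis-specific cohesin subunit, was lower, at 12.6, 14.4 and 13.6 CPM against 5.85, 5.94 and 5.36 CPM (log2 -1.24, adjusted p = 0.00859). TACC3, which stabilizes spindle microtubules together with clathrin, was at 209, 212 and 134 CPM against 1565, 1556 and 594 CPM (log2 2.74, SE 0.40, adjusted p = 0.00114). Taurine 3 had the lowest of the taurine values there, and the log2 difference without it was 3.08.

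Of motor genes, 6 were higher and 3 lower of 62 tested (9.68% and 4.84%), near the shares of all tested genes (10.1% and 4.13%). The counts were 4 higher and 18 lower with library size only, and 6 and 2 with the length trend removed. Subunits of cytoplasmic dynein moved apart. The intermediate chain DYNC1I1 was at 61.8, 75.4 and 108 CPM against 197, 205 and 238 CPM (log2 1.38, adjusted p = 0.00108) and the dynactin subunit DCTN6 at 23.9, 26.1 and 24.8 CPM against 137, 86 and 83.9 CPM (log2 2.04), while the heavy chain DYNC1H1, which carries the motor domain, was at 16.3, 14.9 and 17.2 CPM against 6.32, 7.67 and 5.64 CPM (log2 -1.30, adjusted p = 0.00835). All 3 held with any library left out. Of tubulins and spindle assembly factors, 5 were higher and 1 lower of 36 tested (1 higher and 8 lower with library size only, and 3 and 0 with the length trend removed).

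Respiratory chain genes encoded in the nucleus were called higher more often than lower by TMM, and less so with the length trend removed. This was not so with library size only, where calls over all genes were 601 higher and 2488 lower. Relative to all genes, the list medians under that scaling were 0.50 (complex I) and 0.37 (complexes II to V). Of 53 tested members of the list of complex I subunits and assembly, 14 were called higher and 1 lower (26.4% and 1.89%), with a median log2 difference of 0.52 relative to all genes. The counts were 5 higher and 6 lower with library size only, and 8 and 3 with the length trend removed. By TMM, 8 of the higher and 0 of the lower calls held with every library left out. Their median implied length was 509 nt, and the median relative to all genes went to 0.12 once the length trend was removed. NDUFA6, an accessory subunit of complex I, was at 46.9, 38.4 and 46.2 CPM against 181, 194 and 165 CPM (log2 2.04, SE 0.18, adjusted p = 7.51e-05), NDUFB1 at 70.7, 59.5 and 56.2 CPM against 203, 249.8 and 177 CPM and NDUFC1 at 98, 84 and 77.1 CPM against 266, 299 and 249 CPM. Every taurine library was above every microplastics library in these subunits. For complexes II to V, of 60 tested members of the list of complexes II to V, 13 were called higher and 2 lower (21.7% and 3.33%), with a median log2 difference of 0.38 relative to all genes. The counts were 6 higher and 7 lower with library size only, and 7 and 6 with the length trend removed. By TMM, 6 of the higher and 0 of the lower calls held with every library left out. Their median implied length was 503 nt, and the median relative to all genes went to 0.02 once that trend was removed. The subunits of succinate dehydrogenase differed in direction: the membrane anchor SDHD was at 17.8, 16.1 and 19 CPM against 43.5, 58.8 and 61.8 CPM (log2 1.63, adjusted p = 0.000255) and the flavoprotein SDHA at 35.1, 27.3 and 32.3 CPM against 14.4, 18 and 14.4 CPM (log2 -1.01, adjusted p = 0.00987, 0.0502 without microplastics 1). COX7B and the assembly factor COX16 of cytochrome c oxidase rose by log2 1.12 and 1.36.

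Mitochondrial protein synthesis is the process that taurine-modified transfer RNAs serve. Of 80 tested members of the list of mitochondrial ribosomal proteins, 19 were called higher and 1 lower (23.8% and 1.25%), with a median log2 difference of 0.10 relative to all genes. The counts were 11 higher and 9 lower with library size only, and 12 and 5 with the length trend removed. By TMM, 11 of the higher and 1 of the lower calls held with every library left out. With the length trend removed the median turned to -0.14, so the direction of the list depended on that correction. MRPL22 was at 45.4, 37.6 and 37.1 CPM against 189.5, 203 and 204 CPM (log2 2.31, SE 0.18, adjusted p = 5.02e-05), MRPL39 at 139, 129 and 127 CPM against 379, 420.3 and 537 CPM (log2 1.76) and MRPL33 at 15, 8.22 and 11.1 CPM against 60.1, 66.1 and 49.8 CPM (log2 2.36). MRPS26 alone of the list was called lower, at 22.6, 21.6 and 22.1 CPM against 13.4, 9.31 and 9.14 CPM (log2 -1.06, adjusted p = 0.0107). POLG2, the accessory subunit of the mitochondrial DNA polymerase, was at 146, 107 and 112 CPM against 379.5, 424 and 332 CPM (log2 1.64, adjusted p = 0.000255). RARS2, the mitochondrial arginyl-tRNA synthetase, rose from 296 ± 24.1 to 591 ± 118 CPM (log2 1.00).

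Carriers of the inner membrane included SLC25A31, the ADP/ATP carrier of germ cells, at 104, 101 and 92.7 CPM against 256, 325 and 377 CPM (log2 1.69, adjusted p = 0.000328), and the paralog SLC25A5 at 92.4, 98.5 and 93.5 CPM against 181, 258 and 361 CPM (log2 1.49). Of all SLC25 carriers, 4 were higher and 2 lower of 38 tested (2 higher and 8 lower with library size only, and 4 and 2 with the length trend removed). Protein import showed 6 higher and 1 lower of 36 tested genes (2 higher and 8 lower with library size only, and 4 and 4 with the length trend removed), among them CHCHD4, TIMM9 and DNAJC19 (log2 1.27, 0.98 and 1.64). Genes of fusion, fission, biogenesis and mitophagy showed 5 higher and 1 lower of 33 tested genes (3 higher and 11 lower with library size only, and 4 and 1 with the length trend removed). They included the fission receptor MFF (33.3 ± 2.61 to 77 ± 20.3 CPM, log2 1.21) and the mitophagy receptor BNIP3L (95.1 ± 19.6 to 197 ± 11.3 CPM, log2 1.05).

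In fuel metabolism, glycolysis and pyruvate metabolism showed 1 higher and 1 lower of 34 tested genes (1 higher and 6 lower with library size only, and 1 and 0 with the length trend removed), the higher gene being DLD, the lipoamide dehydrogenase shared by the mitochondrial dehydrogenase complexes (28.1 ± 3.00 to 57.2 ± 11.3 CPM, log2 1.03). The citric acid cycle showed 5 higher and 1 lower of 19 tested genes (0 higher and 2 lower with library size only, and 4 and 0 with the length trend removed). Citrate synthase, CS, was at 2146, 1424 and 927 CPM against 2997, 2905 and 4419 CPM (adjusted p = 0.017), and its call was lost without taurine 3 (0.0532), microplastics 2 (0.0719) or microplastics 3 (0.0702). No call of the cycle held with every library left out, at counts of 5 higher and 1 lower in the full fit. Fatty acid oxidation and lipid storage showed 4 higher and 1 lower of 38 tested genes (1 higher and 8 lower with library size only, and 3 and 2 with the length trend removed), with ACADM, a dehydrogenase of medium-chain acyl-CoA, rising from 18.3 ± 2.20 to 40.1 ± 8.86 CPM (log2 1.13).

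Catalase and peroxiredoxin 3 were higher with taurine, and the superoxide dismutases were not called. Of 49 tested members of the list of antioxidant and thiol redox enzymes, 9 were called higher and 3 lower (18.4% and 6.12%), with a median log2 difference of 0.22 relative to all genes. The counts were 5 higher and 8 lower with library size only, and 8 and 5 with the length trend removed. By TMM, 5 of the higher and 1 of the lower calls held with every library left out. PRDX3, the peroxiredoxin of mitochondria, was at 117, 111 and 117 CPM against 313, 405 and 379.6 CPM (log2 1.67, SE 0.17, adjusted p = 0.000115). Catalase, CAT, was at 117, 145 and 125 CPM against 243, 287 and 407 CPM (log2 1.28, 1.04 without taurine 3), and the glutathione transferase GSTA4 at 67.4, 71.1 and 68.9 CPM against 156, 158 and 170.4 CPM (log2 1.22). The groups did not overlap in these genes. Heme oxygenase 2, HMOX2, which degrades heme, was lower, at 36, 30.8 and 28.4 CPM against 15.2, 13.5 and 10.8 CPM (log2 -1.27, adjusted p = 0.00435).

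SOD1, the cytosolic superoxide dismutase, was at 221, 227 and 218 CPM against 289, 322 and 282 CPM, apart in every library but with an adjusted p of 0.0704 (log2 0.42, 95% interval 0.11 to 0.74, and -0.01 with library size only). The mitochondrial SOD2 was at 14.4, 17.7 and 22.3 CPM against 13.8, 17 and 11.8 CPM (log2 -0.35, -0.90 to 0.20), and the phospholipid hydroperoxidase GPX4 at 28.9, 34 and 26.4 CPM against 13.8, 31.8 and 18.9 CPM (log2 -0.47, -1.11 to 0.17). GPX1, a cytosolic glutathione peroxidase, was at 8.00, 11.6 and 7.51 CPM against 6.27, 9.02 and 58.8 CPM. Its mean difference came from taurine 3, and the log2 difference of 1.45 (-0.07 to 2.96) was -0.24 without that library.

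Regulators of apoptosis of both signs rose. Of 42 tested members of the list of apoptosis regulators, 8 were called higher and 0 lower (19% and 0%), with a median log2 difference of 0.14 relative to all genes. The counts were 7 higher and 4 lower with library size only, and 7 and 0 with the length trend removed. That correction took the median relative to all genes to 0.02. By TMM, 6 of the higher and 0 of the lower calls held with every library left out. At an unadjusted p under 0.05, 2 were lower, and DESeq2 and limma-voom each called 1 lower. PDCD5, a protein linked to programmed cell death, was at 59.2, 41.1 and 52.2 CPM against 288, 269 and 216 CPM (log2 2.34, SE 0.20, adjusted p = 5.56e-05). CFLAR, an inhibitor of caspase 8 activation, was at 1.96, 1.99 and 1.81 CPM against 10.5, 5.74 and 11.3 CPM (log2 2.25, adjusted p = 0.000989), and CASP9, the initiator caspase of the mitochondrial pathway, at 2.34, 2.10 and 2.37 CPM against 5.94, 11.2 and 8.04 CPM (log2 1.89, adjusted p = 0.00203). The groups were separate in all 3 genes. BAX, the pore-forming effector, overlapped at 12.1, 11.3 and 12.9 CPM against 19.9, 12.7 and 9.58 CPM (log2 0.21, 95% interval -0.46 to 0.89, -0.20 with library size only and -0.12 without taurine 1). BCL2 had 0 to 3 reads in each of the 6 libraries and was not tested.

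**Figure D3:**
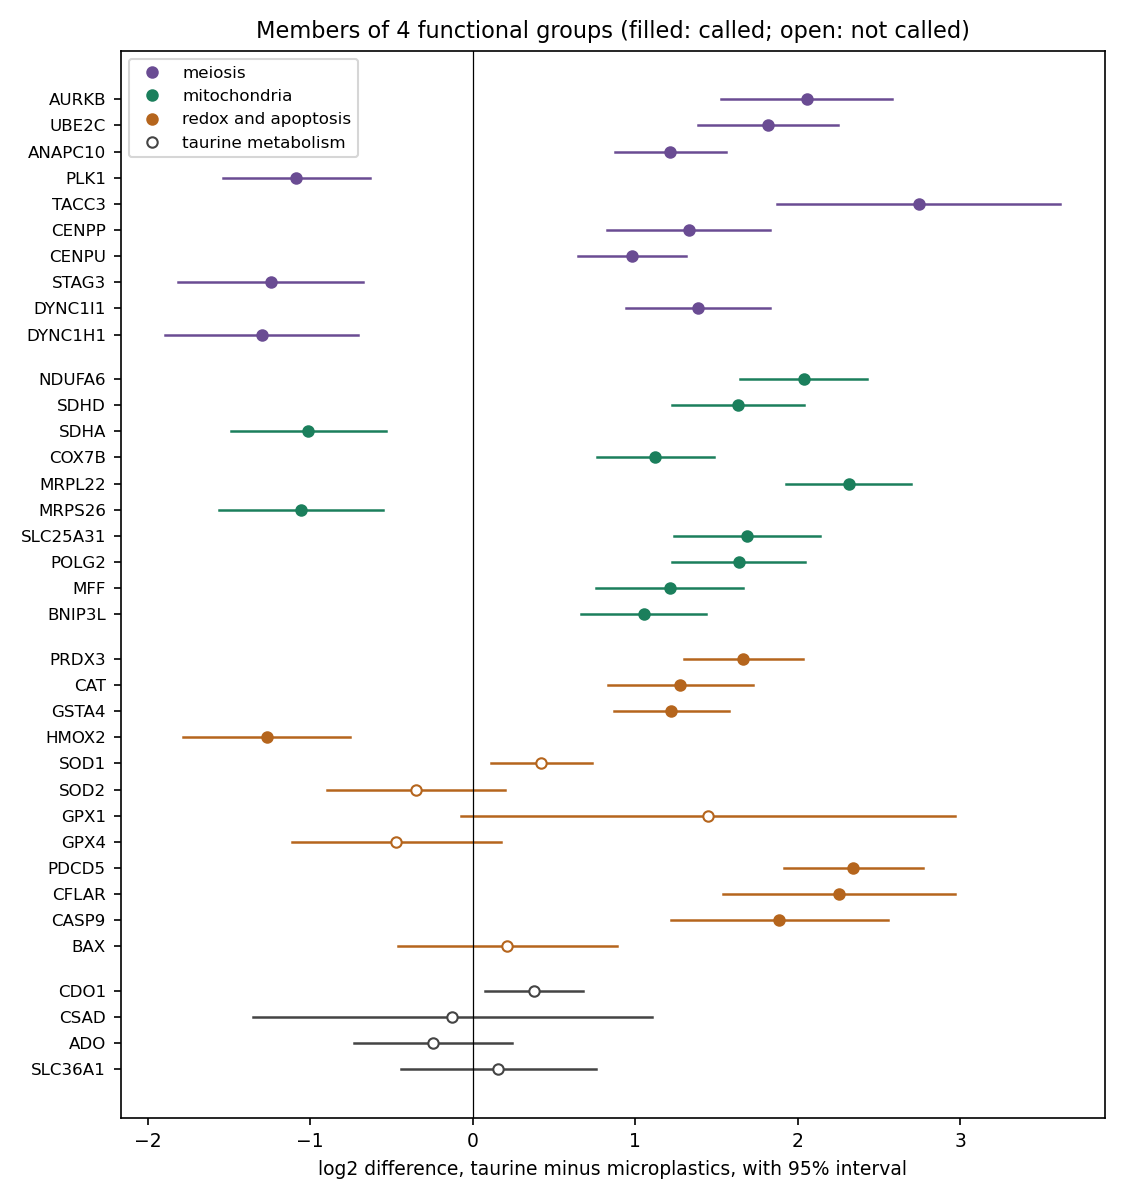
Log2 difference between microplastics plus taurine and microplastics alone, with 95% intervals from the fit over all 9 libraries, for members of 4 groups, where filled points were called and open points were not. AURKB (log2 2.05) and PLK1 (-1.09), SDHD (1.63) and SDHA (-1.01), and PRDX3 (1.67) and HMOX2 (-1.27) lie on opposite sides of 0.

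Of genes that make or carry taurine itself, CDO1, CSAD, ADO and SLC36A1 were not called. CDO1, which oxidizes cysteine in the first step of synthesis, was at 239.7, 228 and 231 CPM against 323, 292 and 291 CPM. The taurine libraries were all higher, the log2 difference was 0.38 (95% interval 0.07 to 0.68, and -0.05 with library size only) and the adjusted p was 0.0948. CSAD, the decarboxylase of the next step, was at 1.02, 1.12 and 0.957 CPM against 1.05, 0.917 and 0.875 CPM, and ADO, which forms hypotaurine from cysteamine, at 28, 18.7 and 19.6 CPM against 20.8, 15.8 and 19.4 CPM (log2 -0.24, -0.73 to 0.24). SLC36A1, a proton-coupled amino acid transporter, was at 6.26, 7.07 and 9.14 CPM against 9.65, 9.07 and 6.35 CPM, while SLC6A6, the sodium-dependent taurine transporter, had 0 to 4 reads per library and was not tested. Groups overlapped in CSAD, ADO and SLC36A1. Of the enzymes that supply cysteine, CTH was higher (149 ± 11 to 263 ± 87.2 CPM, adjusted p = 0.0273) and CBS lower (4.97 ± 1.18 to 1.91 ± 0.287 CPM, adjusted p = 0.0322). Both calls were lost without any one microplastics library (0.058 to 0.127) or without taurine 3 (0.0968 for CTH and 0.0547 for CBS), and that of CBS also without taurine 1 or 2 (0.0736 and 0.0877). Of the list of synthesis, transport and conjugation, 9 genes were tested and CTH and CBS were the only calls by edgeR (1 higher and 1 lower by limma-voom, and 2 higher and 1 lower by DESeq2, where CDO1 was the second higher). The counts were 0 higher and 1 lower with library size only, and 1 and 1 with the length trend removed.

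Cytosolic ribosomal protein genes had the highest share of higher calls of the 48 pathway lists. Of 82 tested members of the list of cytosolic ribosomal proteins, 46 were called higher and 0 lower (56.1% and 0%), with a median log2 difference of 0.84 relative to all genes. The counts were 28 higher and 3 lower with library size only, and 29 and 1 with the length trend removed. By TMM, 25 of the higher and 0 of the lower calls held with every library left out. At an unadjusted p under 0.05, 1 was lower, and DESeq2 and limma-voom called 0 lower. RPS19 was at 7.89, 10.1 and 4.68 CPM against 105, 56.4 and 67.4 CPM (log2 3.34, SE 0.31, adjusted p = 9.09e-05), RPL23 at 8.38, 9.78 and 5.35 CPM against 30.4, 39.4 and 34 CPM (log2 2.14) and RPL27 at 114, 129 and 92.1 CPM against 299, 367 and 344 CPM (log2 1.59). No library of one group reached the range of the other in these 3 genes. Ribosomal protein genes have many processed copies, among which reads may have been divided. Their median implied transcript length was 374 nt, against 2033 nt for all tested genes. The median log2 difference relative to all genes went to 0.43 once the length trend was removed.

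Among factors of translation, of 62 tested members of the list of translation initiation and elongation factors, 15 were called higher and 3 lower (24.2% and 4.84%), with a median log2 difference of 0.06 relative to all genes. The counts were 8 higher and 15 lower with library size only, and 13 and 0 with the length trend removed. That correction took the median relative to all genes to -0.03. By TMM, 8 of the higher and 0 of the lower calls held with every library left out. EIF4E, the cap-binding protein whose access to maternal messages is regulated during maturation, was at 578, 476 and 458 CPM against 1246, 1143 and 1379.7 CPM (log2 1.32, adjusted p = 0.00038). EIF3E was at 725, 772 and 709.8 CPM against 1636, 1409 and 1609 CPM (log2 1.08) and EIF4H rose from 23.9 ± 4.97 to 64.1 ± 9.20 CPM (log2 1.42). The taurine libraries were all higher in each. Aminoacyl-tRNA synthetases showed 6 higher and 2 lower of 38 tested genes (2 higher and 7 lower with library size only, and 6 and 1 with the length trend removed).

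Spliceosome cores showed 11 higher and 1 lower of 49 tested genes (6 higher and 7 lower with library size only, and 8 and 0 with the length trend removed). SF3B4 was at 277, 278 and 223 CPM against 599, 698 and 857 CPM (log2 1.47, adjusted p = 0.000312), SNRNP27 at 213, 207 and 194 CPM against 562, 506 and 473 CPM (log2 1.33), and LSM8 rose by log2 1.28. Taurine and microplastics libraries did not overlap in any of them. SR and hnRNP proteins showed 7 higher and 1 lower of 44 tested genes (1 higher and 5 lower with library size only, and 5 and 0 with the length trend removed), with SRSF7 rising from 179 ± 19.7 to 533 ± 108 CPM (log2 1.58). Export factors and the exon junction complex showed 7 higher and 2 lower of 36 tested genes (2 higher and 10 lower with library size only, and 4 and 1 with the length trend removed). Besides THOC6 these included SARNP, a partner of the THO complex (227 ± 42.9 to 659 ± 78.6 CPM, log2 1.54), and on the lower side SMG1, the kinase of nonsense-mediated decay (60.4 ± 11.8 to 23.6 ± 3.83 CPM, log2 -1.35). RNA helicases of the DDX and DHX families showed 4 higher and 5 lower of 49 tested genes (1 higher and 14 lower with library size only, and 4 and 4 with the length trend removed), with DDX25, a germ cell helicase, at 123, 167 and 154 CPM against 299, 436 and 635 CPM (log2 1.63).

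In maternal messenger RNA decay, BTG4 rose and the scaffold of the deadenylase it recruits fell. CNOT1 was at 76.2, 65.2 and 71.2 CPM against 28.8, 27.3 and 26.6 CPM (log2 -1.36, SE 0.20, adjusted p = 0.00119), with no overlap between groups and the call kept with any library left out. PABPN1L, a poly(A)-binding protein of oocytes, was at 473, 339 and 279 CPM against 1216, 928 and 695 CPM (log2 1.38). The deadenylation and decapping list showed 4 higher and 1 lower of 42 tested genes (2 higher and 9 lower with library size only, and 5 and 1 with the length trend removed). Storage and cytoplasmic polyadenylation genes showed 2 higher and 4 lower of 33 tested genes (1 higher and 14 lower with library size only, and 3 and 3 with the length trend removed). TENT2, a cytoplasmic poly(A) polymerase, was at 68.2, 80.2 and 74.7 CPM against 128, 139 and 176 CPM (log2 0.99), while NANOS1, a translational repressor of germ cells, was at 223, 236 and 189 CPM against 108, 129 and 125 CPM (log2 -0.84). ZAR1 fell from 135 ± 22.5 to 82.1 ± 12.6 CPM (adjusted p = 0.022), a call lost without taurine 2 (0.0666), taurine 3 (0.0785), microplastics 1 (0.0805) or microplastics 2 (0.0881).

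Nucleoporins were called in both directions. Of 30 tested members of the list of nucleoporins, 9 were called higher and 3 lower (30% and 10%), with a median log2 difference of 0.20 relative to all genes. The counts were 5 higher and 10 lower with library size only, and 9 and 1 with the length trend removed. By TMM, 6 of the higher and 1 of the lower calls held with every library left out. NDC1, a membrane anchor of the pore, was at 28.1, 25.1 and 16 CPM against 60.8, 103 and 90.4 CPM (log2 1.88, adjusted p = 0.000589). The scaffold nucleoporin NUP155 was at 169, 141 and 138 CPM against 418, 272 and 332 CPM (log2 1.19) and NUP35 at 1169.8, 1301 and 1171 CPM against 2414, 2062 and 2222 CPM (log2 0.88). NUP62 of the central channel was lower, at 38.4, 29.9 and 31.2 CPM against 12.1, 13.7 and 12.1 CPM (log2 -1.40, adjusted p = 0.0011). None of these 4 genes had overlapping groups.

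In the ubiquitin system, calls by TMM were mostly higher for conjugating enzymes and proteasome subunits and mostly lower for deubiquitinating enzymes. With library size only the conjugating enzymes had more lower than higher calls, as did all genes (2488 and 601). Their median relative to all genes was then 0.18, a quantity that such a rescaling leaves nearly unchanged. With the length trend removed it was -0.03. Of 36 tested members of the list of E2 ubiquitin-conjugating enzymes, 10 were called higher and 2 lower (27.8% and 5.56%), with a median log2 difference of 0.20 relative to all genes. The counts were 5 higher and 7 lower with library size only, and 9 and 2 with the length trend removed. By TMM, 7 of the higher and 0 of the lower calls held with every library left out. UBE2T, of the Fanconi anaemia pathway, was at 50.9, 34.6 and 38.3 CPM against 109.9, 154 and 183 CPM (log2 1.85) and UBE2L3 at 200.5, 209 and 193 CPM against 369, 390.3 and 394 CPM (log2 0.94). Both held. Proteasome subunits and chaperones showed 11 higher and 1 lower of 49 tested genes (6 higher and 5 lower with library size only, and 9 and 1 with the length trend removed). PSMD12 was at 103, 90.2 and 120.1 CPM against 258, 266 and 294 CPM (log2 1.38), PSMB3 at 175, 151 and 158 CPM against 290.0, 394 and 559 CPM (log2 1.36, 1.08 without taurine 3), and the assembly chaperone PSMG2 rose from 70.7 ± 10.8 to 169 ± 9.39 CPM. Taurine libraries were the higher in each. Deubiquitinating enzymes, with a median implied length of 3195 nt, showed 1 higher and 7 lower of 63 tested genes (1 higher and 25 lower with library size only, and 2 and 3 with the length trend removed), and 2 of the lower calls held. USP9X was at 185, 155 and 198 CPM against 104, 99.4 and 102 CPM (log2 -0.81) and USP7 at 170.2, 158 and 205 CPM against 114, 91.5 and 92.3 CPM (log2 -0.84), and the only higher gene was OTUD6B (208 ± 43 to 558 ± 33.5 CPM, log2 1.42).

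Genes of DNA and histone modification were called lower with taurine more often than higher. Of 61 tested members of the list of DNA and histone modification, 2 were called higher and 10 lower (3.28% and 16.4%), with a median log2 difference of -0.39 relative to all genes. The counts were 1 higher and 28 lower with library size only, and 1 and 4 with the length trend removed. By TMM, 1 of the higher and 3 of the lower calls held with every library left out. EHMT2, a histone H3 lysine methyltransferase, was at 114, 99 and 96 CPM against 62, 50.6 and 54.9 CPM (log2 -0.88, adjusted p = 0.00705), NSD2 at 24.6, 21 and 22.1 CPM against 8.36, 12.1 and 8.97 CPM (log2 -1.20) and NSD1 at 3.85, 4.96 and 4.32 CPM against 0.808, 1.35 and 1.92 CPM (log2 -1.69). These methyltransferases had no overlap between groups. UHRF1, which recruits the maintenance DNA methyltransferase, was higher, at 1742, 1849.8 and 1338 CPM against 2650.0, 2932 and 3995 CPM (log2 0.96, adjusted p = 0.00757). Outside the list, the oocyte linker histone H1-8 rose from 2717 ± 480.2 to 5258 ± 1134 CPM (adjusted p = 0.0083, 0.0524 without microplastics 3). The list had a median implied transcript length of 4438 nt. Remodelling complexes showed 3 higher and 6 lower of 46 tested genes (0 higher and 22 lower with library size only, and 3 and 3 with the length trend removed), with TRRAP, the scaffold of histone acetyltransferase complexes, at 52.6, 46.7 and 40.8 CPM against 23.9, 21.5 and 25.9 CPM (log2 -0.97).

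In the transcription machinery, of 86 tested members of the list of RNA polymerase II, general factors and Mediator, 18 were called higher and 4 lower (20.9% and 4.65%), with a median log2 difference of 0.09 relative to all genes. The counts were 10 higher and 21 lower with library size only, and 15 and 3 with the length trend removed. By TMM, 9 of the higher and 1 of the lower calls held with every library left out. TAF1A, a factor of RNA polymerase I placed in this list with the other TAF genes, was at 86.5, 91.8 and 92.2 CPM against 289, 297 and 346 CPM (log2 1.78, adjusted p = 9.34e-05). The Mediator subunits MED6 and MED30 were at 81.4, 76.8 and 87.2 CPM against 321, 257 and 259 CPM and at 51.3, 45.8 and 53.3 CPM against 171, 136 and 156 CPM (log2 1.77 and 1.62), while MED16 fell from 9.18 ± 1.57 to 3.90 ± 0.544 CPM (log2 -1.23). All 4 calls held. ZNF zinc finger genes showed 8 higher and 12 lower of 235 tested genes (2 higher and 48 lower with library size only, and 8 and 7 with the length trend removed). Of these, ZNF45 rose from 7.00 ± 1.88 to 24.6 ± 3.34 CPM, and ZNF592 and ZNF318 fell from 24.5 ± 2.68 to 11.1 ± 0.758 and from 35.5 ± 3.70 to 14.6 ± 2.11 CPM.

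Genes of DNA damage response and repair showed 10 higher and 2 lower of 74 tested genes (5 higher and 15 lower with library size only, and 12 and 0 with the length trend removed). RAD17, which loads the checkpoint clamp, was at 177, 169 and 193 CPM against 602, 562 and 600.4 CPM (log2 1.71, SE 0.17, adjusted p = 9.34e-05), RPA3, a subunit of the single-strand binding protein, at 131, 129.7 and 129 CPM against 389, 391 and 319 CPM (log2 1.49), and RNF168, a ubiquitin ligase at double-strand breaks, rose from 10.9 ± 1.49 to 29.3 ± 4.23 CPM. In each gene all taurine libraries were above all microplastics libraries.

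**Figure D4:**
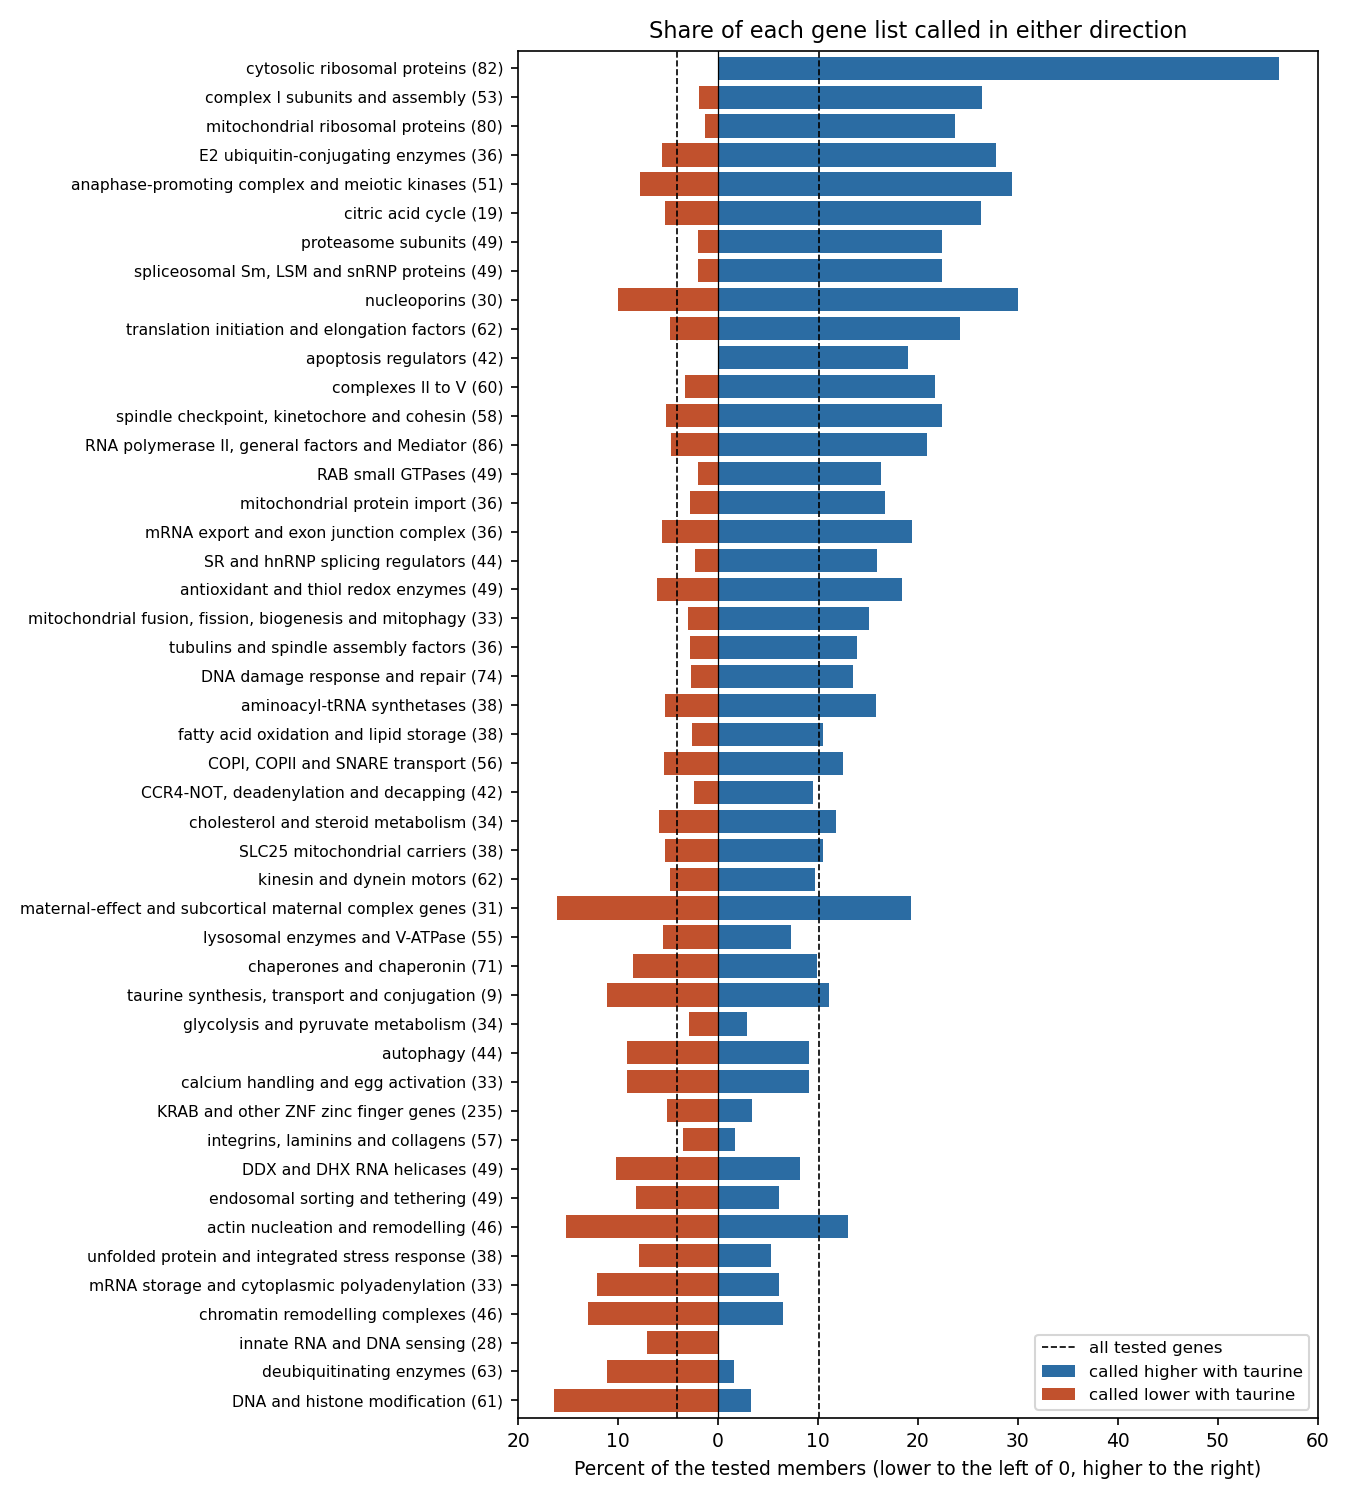
Percent of the tested members of each pathway gene list shown called higher (right) or lower (left) with taurine, the number tested in brackets, with dashed lines at the shares over all tested genes (10.1% and 4.13%). Cytosolic ribosomal proteins reach 56.1% higher, and DNA and histone modification has one of the largest lower shares (16.4%).

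Actin nucleation and remodelling showed 6 higher and 7 lower of 46 tested genes (4 higher and 18 lower with library size only, and 6 and 2 with the length trend removed), with FMNL3 and WASHC1 lower and the formin DIAPH2 (24.3 ± 4.59 to 63.8 ± 4.63 CPM, log2 1.39) and the Arp2/3 subunit ARPC3 (93.3 ± 7.60 to 173 ± 8.35 CPM, log2 0.89) higher. Integrins, laminins and collagens showed 1 higher and 2 lower of 57 tested genes (0 higher and 9 lower with library size only, and 3 and 1 with the length trend removed).

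In membrane traffic, endosomal sorting and tethering showed 3 higher and 4 lower of 49 tested genes (2 higher and 11 lower with library size only, and 3 and 3 with the length trend removed). SNX3, a sorting nexin of the retromer pathway, was at 44.3, 27 and 29.7 CPM against 193, 221 and 173 CPM (log2 2.54, SE 0.21, adjusted p = 5.39e-05), while VPS16, a core subunit of the tethering complexes of endosomes and lysosomes, was at 48.3, 44.9 and 36 CPM against 14.5, 15.8 and 14.4 CPM (log2 -1.53, adjusted p = 0.00127). Each gene separated the groups, in opposite directions. RAB GTPases showed 8 higher and 1 lower of 49 tested genes (2 higher and 4 lower with library size only, and 6 and 1 with the length trend removed), with RAB9A at 45.4, 47.2 and 55 CPM against 159, 205 and 171 CPM (log2 1.86) and RAB24 at 8.49, 7.14 and 6.02 CPM against 2.57, 2.80 and 1.81 CPM (log2 -1.59). Coat and SNARE genes showed 7 higher and 3 lower of 56 tested genes (2 higher and 10 lower with library size only, and 5 and 2 with the length trend removed), including ARF4, TMED9 and STX12 (log2 0.80, 1.46 and 1.19). Lysosomal enzymes and the proton pump showed 4 higher and 3 lower of 55 tested genes (2 higher and 10 lower with library size only, and 4 and 3 with the length trend removed). Autophagy showed 4 higher and 4 lower of 44 tested genes (4 higher and 12 lower with library size only, and 4 and 2 with the length trend removed), with the ATG8 proteins MAP1LC3B (135 ± 2.84 to 284 ± 12.1 CPM) and GABARAPL2 (237 ± 9.52 to 422 ± 24.5 CPM) higher and TFE3, a transcription factor of lysosomal genes, and ATG101 lower (log2 -0.81 and -1.19).

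Among stress genes, chaperones showed 7 higher and 6 lower of 71 tested genes (3 higher and 21 lower with library size only, and 6 and 5 with the length trend removed). HSPH1, the nucleotide exchange factor of HSP70, was at 129, 93.4 and 113 CPM against 48.7, 60.2 and 42.6 CPM (log2 -1.15, adjusted p = 0.00824), and PFDN4, a subunit of prefoldin, at 91.8, 67 and 53.4 CPM against 343, 251 and 260.4 CPM (log2 2.01, adjusted p = 0.000196). The groups were separate in both. The unfolded protein and integrated stress response showed 2 higher and 3 lower of 38 tested genes (0 higher and 15 lower with library size only, and 2 and 4 with the length trend removed), and none of those calls held. In innate RNA and DNA sensing, 0 of 28 tested genes were called higher and 2 lower by edgeR. The counts were 3 and 4 at an unadjusted p under 0.05, 1 and 2 by DESeq2 and 0 and 2 by limma-voom. They were 0 and 6 with library size only, and 0 and 1 with the length trend removed. DHX58, a cytosolic sensor of viral RNA, was at 58.6, 50.8 and 54.4 CPM against 20.0, 21.3 and 20.2 CPM (log2 -1.41, SE 0.17, adjusted p = 0.000312), with the control libraries at 14.3, 13.2 and 14.6 CPM. Cholesterol and steroid genes showed 4 higher and 2 lower of 34 tested genes (3 higher and 8 lower with library size only, and 4 and 0 with the length trend removed), with SREBF2, the transcription factor of sterol synthesis, at 16, 13.7 and 13.2 CPM against 60.8, 52.5 and 43.2 CPM (log2 1.87, adjusted p = 0.000162) and the sterol oxidase MSMO1 at 397, 378 and 328 CPM against 681, 647 and 929 CPM (log2 1.03).

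Maternal-effect genes were split. Of 31 tested members of the list of maternal-effect and subcortical maternal complex genes, 6 were called higher and 5 lower (19.4% and 16.1%), with a median log2 difference of 0.08 relative to all genes. The counts were 3 higher and 7 lower with library size only, and 4 and 4 with the length trend removed. By TMM, 2 of the higher and 2 of the lower calls held with every library left out. BTG4 and SOHLH2, an oocyte transcription factor (165 ± 23.7 to 320.2 ± 26.3 CPM, log2 0.96), were higher. NLRP9 was at 444, 493 and 409 CPM against 241, 234 and 315 CPM (log2 -0.77, adjusted p = 0.0102) and NLRP2 at 110.2, 94.2 and 116 CPM against 38.2, 51.6 and 52.7 CPM (log2 -1.17, adjusted p = 0.0113). Both NLRP genes were lower in every taurine library. NLRP5, a component of the subcortical maternal complex, fell from 49.8 ± 2.06 to 24.5 ± 8.41 CPM (adjusted p = 0.0316), a call lost without taurine 3 (0.0884) or any one microplastics library (0.0819 to 0.0994). Calcium handling and egg activation showed 3 higher and 3 lower of 33 tested genes (2 higher and 10 lower with library size only, and 3 and 1 with the length trend removed). Besides CALM2 these included CD9, the egg tetraspanin required for sperm fusion, at 14.7, 11.8 and 8.93 CPM against 25.9, 83.9 and 56.7 CPM (log2 2.23, adjusted p = 0.00321).

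Markers of other cell types of the follicle were present at low levels and moved in part with the groups. Cumulus and granulosa markers summed to 428 to 529 CPM in the microplastics libraries and 526 to 574 CPM in the taurine libraries. Of 15 tested, 4 were higher and 0 lower by edgeR (0 lower also at an unadjusted p under 0.05, by DESeq2 and by limma-voom). The counts were 3 and 0 with library size only, and 4 and 0 with the length trend removed. SERPINE2 was at 12.7, 14 and 13 CPM against 28.8, 42.8 and 55.3 CPM (log2 1.68), PTGS2, the prostaglandin synthase of cumulus expansion, at 8.45, 9.60 and 8.26 CPM against 24, 16.9 and 16.5 CPM (log2 1.12), and VCAN rose from 30.4 ± 2.46 to 51.2 ± 3.65 CPM (adjusted p = 0.00933, 0.0551 without microplastics 1). STAR and HAS2 made up most of the summed level, with means of 308 and 77.7 CPM with microplastics and 281 and 101 CPM with taurine. Of the 15 tested, 11 had a log2 difference above 0. Means were lower with taurine in STAR, KITLG (4.14 and 2.63 CPM), GREM1 (4.41 and 2.59 CPM) and HSD3B1 (0.553 and 0.321 CPM). FSHR and AMH were near 0, with at most 2 and 10 reads in any of the 6 libraries. INHA had 0, 2 and 0 reads in microplastics 1 to 3 and 15, 8 and 168 in taurine 1 to 3, and its call (adjusted p = 0.00972) was lost without microplastics 1 (0.0515). TNFAIP6 had 609 reads in taurine 3 and at most 24 in the other 5 of the 6 libraries, and 19, 1251 and 32 reads in control 1 to 3. LUM had 739 reads in taurine 3 and 91 in microplastics 2, and 0, 3 and 3 reads in control 1 to 3. Both genes were singled out after their values were seen, and neither was called. Of the erythroid, leukocyte, endothelial and stromal lists, 1 of 12 tested genes was called, HBA (6.54 ± 1.31 to 13.9 ± 1.15 CPM, adjusted p = 0.0186, lost without microplastics 1 or 2 at 0.0876 and 0.0845), and their summed levels were at most 67.7 CPM in any of the 6 libraries. The part of such cells in the differences was not tested.

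The direction of the differences varied with transcript length. Lengths were inferred from the ratio of counts to FPKM for 13175 of the tested genes (99.8%), which were put into 5 equal classes. The median log2 difference was 0.27 in the shortest class (median length 755 nt), where 486 genes were higher and 37 lower, and then 0.10, 0.02 and -0.15, to reach -0.25 in the longest (5066 nt), where 75 were higher and 223 lower. With library size only all 5 medians were below 0, from -0.17 to -0.68, and the order was the same. Reads were also shifted as a whole, the read-weighted mean transcript length being 2170 ± 61.6 nt with microplastics and 1917 ± 39.3 nt with taurine (SD, n = 3, exact permutation p = 0.1), with no overlap. When a smooth trend on length was removed in each library, 1544 genes were called, 1126 higher and 418 lower. The part of RNA quality in these shifts was not tested.

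**Figure D5:**
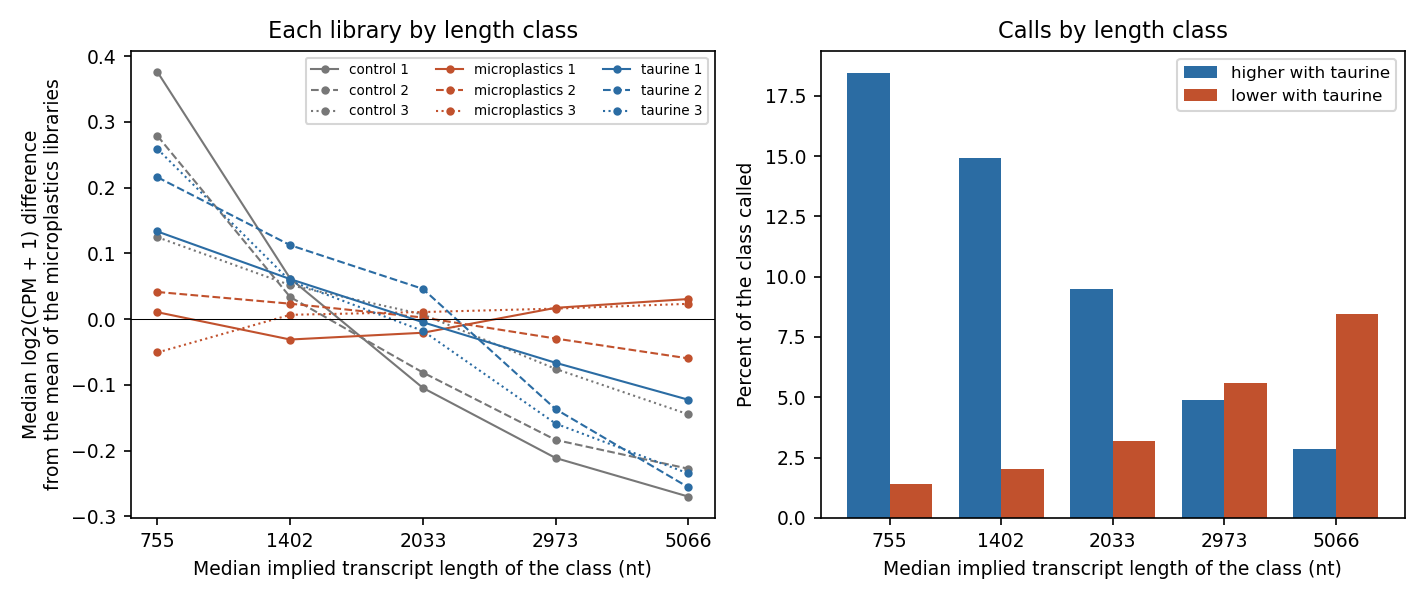
Left, median difference of log2(CPM + 1) from the mean of the microplastics libraries in 5 classes of implied transcript length, one line per library. Right, percent of each class called. The taurine and control libraries slope from above 0 in the shortest class to below 0 in the longest, and calls run from 18.4% higher in the shortest to 8.46% lower in the longest class.

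Tested transcript by transcript, 1428 of 15609 rows were called (9.15%), 1074 higher (6.88%) and 354 lower (2.27%). In 4 genes, OSBPL10, SRRM2, ZFAND4 and ZSCAN20, one transcript was called higher and another lower. In SRRM2, a large splicing factor, a transcript of 8793 nt was at 69.0, 68.1 and 77.6 CPM with microplastics and 34.6, 32.3 and 30.2 CPM with taurine, while one of 1188 nt had no reads with microplastics and was at 2.75, 3.96 and 5.02 CPM with taurine. In OSBPL10, a lipid transfer protein, a transcript of 3456 nt was at 7.04, 10.2 and 6.77 CPM against 0, 0.532 and 0 CPM, and one of 3458 nt had no reads in the microplastics libraries and was at 8.12, 2.90 and 7.92 CPM with taurine. Reads of near-identical transcripts are divided by an estimate, so these switches are less certain than gene totals.

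Many genes did not differ by much. Of the 1195 genes with at least 100 CPM that were not called, 972 had a 95% interval of the log2 difference within 1 on either side of 0, and 199 within 0.5. The microplastics libraries enter both this comparison and that with the control, so the values are only set side by side: microplastics differed from control in 3213 genes (24.3%), and taurine differed from control in 1 (0.00757%), a gene without a symbol that had no reads in control and was at 6.30, 5.54 and 4.25 CPM with microplastics and 3.18, 1.30 and 1.97 CPM with taurine. The count of 1 (753 at an unadjusted p under 0.05) was 2 without taurine 3 and 0 without control 3 (1735 at an unadjusted p under 0.05). It was 783 (5.83%, 623 higher and 160 lower) without both, where microplastics differed from control in 5110 genes (38.1%). Both libraries were picked because each lay closer to the other group in these same data, so leaving them out by itself favours a larger count between taurine and control. In the order control, microplastics, taurine and over all libraries, PRDX3 had means of 430.1, 115 and 366 CPM, CALM2 4513, 731 and 4017 CPM, AURKB 578, 138 and 573 CPM, PLK1 46.1, 104 and 49.2 CPM and DHX58 14, 54.6 and 20.5 CPM. These genes were picked from the called ones and do not stand for all. NDC1 (150, 23.1 and 84.7 CPM) and EIF4E (1727, 504 and 1256 CPM) remained farther below control. Over all calls, the taurine mean lay within the range of the control libraries in 804 of 1333 higher and 332 of 545 lower genes.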

How the data were processed

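RNA was measured by sequencing in 9 libraries of bovine oocytes, 3 per group, grouped by their treatment label. The deposited table gives, per the file headers, estimated read counts per RefSeq transcript (22590 rows), besides FPKM and TPM values and a normalized read signal made by the authors. The aligner, counter and genome build, and whether strand was used, are not stated by the labels or header. The deposited estimated counts were summed per gene ID and rounded to whole numbers (17852 genes). Symbols of RefSeq (ARS-UCD2.0) matched 16995 of them (95.2%). The FPKM of the authors served only to infer transcript lengths, and the deposited TPM and normalized signal were not used.

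Genes passing filterByExpr (minimum count 10, minimum total 15) were tested with edgeR 4.0.16 in R 4.3.3 (robust quasi-likelihood fit over all 9 libraries, TMM scaling, Benjamini-Hochberg adjusted p under 0.05), and every adjusted p is from that test unless another is named. Intervals are 95% intervals of the fit. Alternatives used DESeq2 1.42.0, limma-voom (limma 3.58.1), other scalings and filters, a length correction, a replicate block and each library left out. A count of 3 corresponds to 0.106 to 0.164 CPM. The test was run on simulated data.

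Named genes were the 12 higher and 12 lower with the largest log2 differences (called, at least 5 CPM in the higher group, groups not overlapping), the 10 and 10 with the largest CPM differences, up to 3 per direction and list by adjusted p, called marker genes, genes with opposite transcripts, and 16 genes by name. The text gives a selection of these, and some items, 1 gene list among them, are not reported here. Members and lists were chosen with earlier results of these data known. Promoter and protein sequences were planned and not described, since no sequence tables were used here.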

Additional observations from a re-analysis of the deposited data

How the results depend on the processing

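The number of genes called was 1878 and became 3089 with library size only (601 higher and 2488 lower). The median log2 difference of all genes was -0.02 with TMM and -0.45 with library size only. Which scaling is nearer to the truth was not tested. With 1 library left out it ranged from 888 to 2146, with 712 to 1550 higher and 176 to 726 lower. The DESeq2 Wald test called 888 lower genes. Fitting the replicate number as a block gave 1293 calls, 1000 higher and 293 lower. Same-numbered microplastics and taurine libraries did not deviate together (correlations of 0.02, -0.10 and -0.15). So few correlations cannot decide whether the numbers pair the samples, and the labels do not state it. With the length trend removed the gap between the shortest and longest length class fell from 0.52 to 0.0003, as that correction is built to do. In alternatives chosen after seeing the data, the count for taurine against control was 1 with all libraries, 0 to 2 with taurine 3 or control 3 left out and 783 without both, and that for microplastics against control was 3213 and became 5110. The other counts over all genes and over all transcripts stayed within 1.5 times under the alternatives run. Of 1026 medians of the 54 gene lists under alternatives, 155 moved by more than the SD over the taurine libraries and 871 by less. The counts with library size only or the length trend removed are given with each pathway list described. The 5 library measures kept their direction with any of the 6 libraries left out.

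Of the genes named, these changed sign, none of them called by edgeR: with library size only BAX (-0.20), BMP15 (-0.16), CDO1 (-0.05), GDF9 (-0.09), SLC36A1 (-0.26), SOD1 (-0.01) and ZFAND4 (-0.12), BAX with the length trend removed (-0.18) or without taurine 1 (-0.12), and GPX1 without taurine 3 (-0.24) or without taurine 3 and control 3 (-0.25). With 1 library left out BAX ranged from -0.12 to 0.43 and GPX1 from -0.24 to 1.90. The cause was not tested. Depth allowed a floor of 0.106 to 0.164 CPM.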
